A study of Mus musculus with 14 samples.

Results

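The proteasome subunit genes were taken as every gene name on the array made of Psm, a letter from a to g and a number. This gave 42 genes on 63 of the 41174 non-control probes, out of 27962 gene names, and 16 of the 42 had more than 1 probe. Where a gene had several, its brightest probe was used. Single-colour Agilent arrays with probes of 60 bases measured the testis RNA of C57BL/6 mice, in 3 Glis3KO2 and 3 WT samples at 4 weeks of age and in 4 Glis3KO2 and 4 WT samples at 1 week of age. Glis3KO2 samples carry a disruption of Glis3, which encodes a zinc finger regulator of transcription of the GLI-similar family. The sample labels name no further allele, no treatment and no cell type that limits the disruption, and they do not say whether a sample is 1 animal. Each p-value therefore measures the spread between these samples. The older age is 4 weeks in the sample labels, which are followed here, and 3 weeks in the series description. The members split into 7 genes of the alpha ring, the testis alpha subunit Psma8, 4 structural and 3 catalytic genes of the beta ring, the 3 immunoproteasome genes Psmb8, Psmb9 and Psmb10, 6 ATPases and 11 non-ATPases of the regulatory particle, 3 assembly chaperones of that particle, 3 activators and 1 inhibitor.

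The proteasome is the barrel-shaped protease that degrades proteins tagged with ubiquitin. Its core is a stack of rings, with alpha subunits outside that guard the gate and beta subunits inside that carry the active sites, and a regulatory particle on its end unfolds the substrate with a ring of ATPases and strips the ubiquitin off in its lid. Interferon-induced catalytic subunits can replace the constitutive ones to form the immunoproteasome, which makes peptides for MHC class I. In the testis, male germ cells entering meiosis and forming spermatids make a variant core with Psma8 in place of Psma7, and the activator Psme4 caps proteasomes that act on acetylated histones.

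Signals are given as log2 values after subtraction of the array's own 75th percentile over non-control probes. A genotype difference is Glis3KO2 minus WT on that scale. Genes were tested with limma, and adjusted p-values are Benjamini-Hochberg values over all genes tested, with a gene called at an adjusted p under 0.05. All 42 members were tested in every comparison, since their brightest probes were well above background on all 14 arrays, and 36 of them lay in the brightest quartile of tested genes. Between 74.3% and 86.6% of spots that were not controls passed background per array, with 1-week WT replicates 1 to 3 at 82.6% to 86.6% and the remaining arrays at 74.3% to 78.6%. The number of arrays limits the precision. Arrays of 1-week Glis3KO2 correlated with 1-week WT at 0.962 to 0.987 across genes, which are not independent replicates, and 4-week Glis3KO2 with 4-week WT at 0.897 to 0.959. 1-week WT replicate 4 correlated at most at 0.987 with a 1-week Glis3KO2 array and at most at 0.983 with another 1-week WT array, and every other array correlated best with its own genotype. It was kept under its label, and without it Psmb8 was the 1 member called at 1 week. Glis3 itself was above background on 0 of 4 arrays in 1-week Glis3KO2 and on 4 of 4 in 1-week WT. It averaged -8.04 ± 0.84 in 1-week Glis3KO2 and -4.87 ± 0.18 in 1-week WT (SD, n = 4 each; exact permutation p = 0.0286, two-sided, the smallest these groups allow) and was at least 4.25-fold lower (limma adjusted p = 0.00581). At 4 weeks its probe was above background on no array of either genotype. The labels do not say whether that probe lies in the disrupted stretch. Ages lie on separate slides, so age and slide cannot be told apart, and slide 3 holds only 1-week Glis3KO2 replicate 4, scanned on another day.

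At 4 weeks the subunit genes did not move together. Psme1, Psma7, Psmb10, Psmd7, Psmd5, Psmb3 and Psma1 were higher in Glis3KO2, and 16 other genes were lower, led by the inhibitor Psmf1, the testis subunit Psma8, the activator Psme4 and the ATPases Psmc3 and Psmc2. Of the 42 members 7 were called higher and 16 lower. Over all genes 69.2% were called, 35.1% higher and 34.1% lower, so the 23 called members were no larger a share than the background. The median log2 difference of the members was -0.10, against 0.03 over all 21335 genes tested and 0.19 over the brightest quartile. The members ran from -1.83 for Psmf1 to 1.54 for Psme1. For 36 members the arrays of the genotypes did not overlap, while 77.0% of all genes had no overlap.

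The split into higher and lower depended on the scaling between arrays. With quantile normalization 17 members were called higher and 8 lower, with a median of 0.09. With median scaling 5 were called higher and 16 lower. The calls of Psma7, Psmb10, Psmd5, Psmd7 and Psme1 (higher) and of Psma8, Psmc2, Psmc3, Psmd8, Psmd9, Psme3, Psme4 and Psmf1 (lower) held under all 3 scalings. With quantile normalization the difference of Psmd11 was 0.0044, on the other side of 0. Single arrays also moved the counts. Without 4-week Glis3KO2 replicate 3 there were 13 members higher and 20 lower, without 4-week WT replicate 2 or replicate 3 there were 4 higher in each case, and without 4-week WT replicate 1 there were 10 lower. Within slides, all 23 called members had the same sign on slide 4 (2 against 2 arrays) and on slide 5 (1 against 1). Their arrays did not overlap between the genotypes, so this sign could not differ and is no further check. Under all 17 alternatives Psma7, Psmb10, Psmd7 and Psme1 stayed called higher, and Psma8, Psmc3, Psmd8, Psme3, Psme4 and Psmf1 lower. The alternatives include the authors' series table, which held the same values and could change no call.

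**Figure D1:**
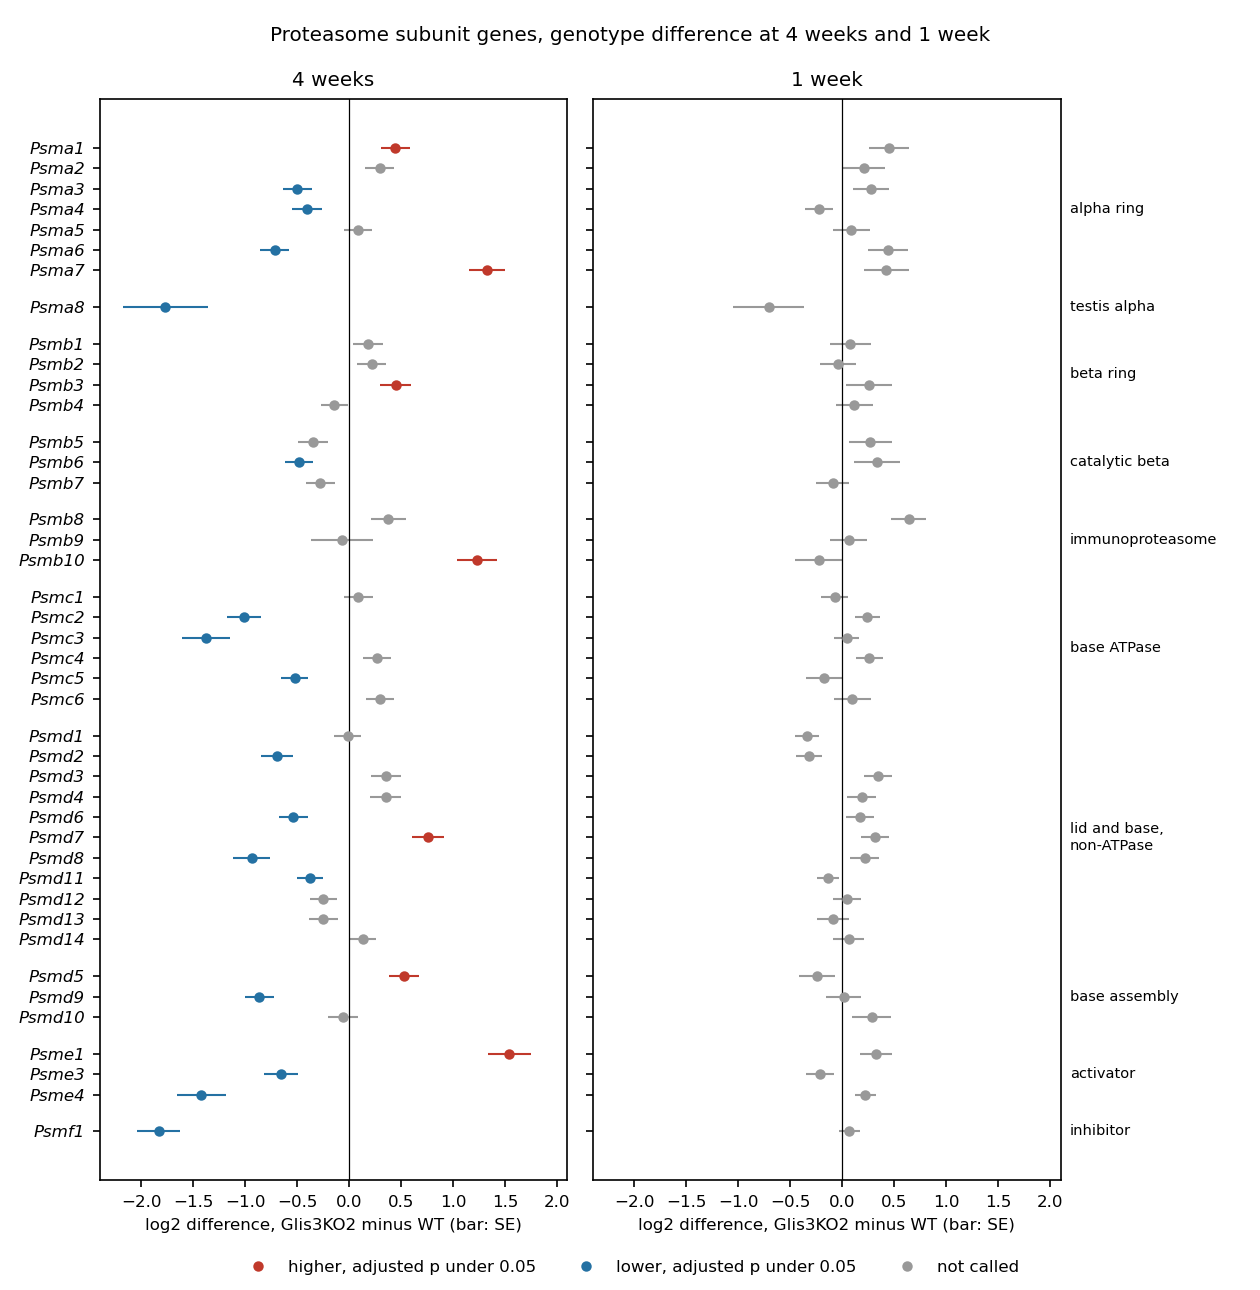
Log2 difference, Glis3KO2 minus WT, of the 42 proteasome subunit genes at 4 weeks (left) and 1 week (right), grouped by role, with bars of 1 SE on the horizontal axis. Red points are called higher and blue points lower at an adjusted p under 0.05, 7 and 16 at 4 weeks, and all 42 points at 1 week are grey, not called.

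**Figure D2:**
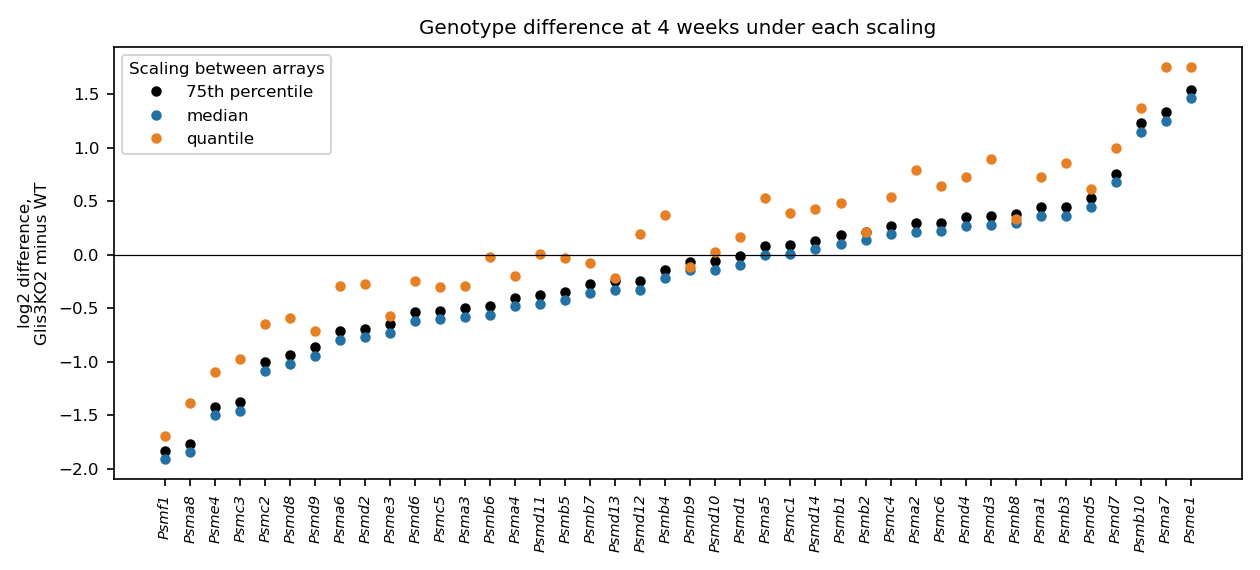
Log2 difference at 4 weeks, Glis3KO2 minus WT, of each subunit gene under scaling by the 75th percentile (black), the median (blue) and quantiles (orange), with genes in the order of the black points. The ends of the order, from Psmf1 to Psmd9 on the left and from Psmd5 to Psme1 on the right, keep their side of 0 under all 3 scalings, and most genes between them shift upward with quantiles.

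At 1 week no subunit gene was called by limma in either direction, while 10.0% of all 22678 genes tested were called, 3.90% higher and 6.14% lower. At an unadjusted p under 0.05 there were 6 of 42 members and 8188 of all genes. The members' median log2 difference was 0.09, against -0.07 over all genes and 0.22 over the brightest quartile, and the members ran from -0.71 for Psma8 to 0.64 for Psmb8. The genotypes did not overlap for 5 members, and 27.3% of all genes had no overlap. The median over the members was 3.53, 3.60, 3.82 and 3.75 on the 1-week Glis3KO2 arrays, against 3.40, 3.44, 3.41 and 3.62 on the 1-week WT arrays. Glis3KO2 replicate 3 was the highest of the 8. The summed linear signal of 5 blood markers was 63.6, 74.5, 158 and 103 on the same Glis3KO2 arrays, against 45.2, 52.0, 60.2 and 73.7 on the WT arrays, and replicate 3 was highest there too. That of 7 epididymis markers was 0.823, 0.125, 0.200 and 1.11 on the same Glis3KO2 arrays and 0.136 to 0.225 in 1-week WT. In each of these groups 3 of the 7 were above background on no array. The part of the blood and epididymis markers in the member values was not tested. The members' median lay 0.16 above that of all genes, and with quantile normalization it lay below it (-0.14). Median scaling moved the median of all genes to 0.19. It shifts every gene of an array by the same amount, so it could not change the 0.16. Within slide 1 (2 against 2 arrays) the median difference of the members was 0.24, and within slide 2 (1 against 2) it was -0.08. Psmb8 alone was called when 1-week WT replicate 4 or Glis3KO2 replicate 2 was left out.

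The alpha ring held changes in both directions. Psma7, the alpha subunit that Psma8 replaces in the testis variant, had signals of 5.01, 5.38 and 4.89 in 4-week Glis3KO2, against 3.81, 3.78 and 3.70 in 4-week WT. Every Glis3KO2 array lay above every WT array. The log2 difference was 1.33 (SE 0.17, adjusted p = 0.000977), which is 2.52-fold higher. At 1 week its signals were 5.44, 5.56, 6.41 and 5.82 in 1-week Glis3KO2, against 5.40, 5.30, 5.23 and 5.59 in 1-week WT. The genotypes overlapped, replicate 3 of Glis3KO2 was the highest, and the difference of 0.42 was not called (adjusted p = 0.188). The difference at 4 weeks minus that at 1 week was 0.91 (SE 0.30, adjusted p = 0.0230). With median scaling it was 0.57 (adjusted p = 0.198), and the call was also lost without 4-week WT replicate 3 or without 4-week Glis3KO2 replicate 2. The Psma7 probe lies at chr2:180537357-180537416 on the mm7 build given in the deposited files, which hold no exon or UTR annotation.

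Psma8, the testis-specific alpha subunit, went the other way. Its signals were 2.94, 3.40 and 4.61 in 4-week Glis3KO2, against 5.41, 5.38 and 5.46 in 4-week WT. The WT arrays lay close together and above all Glis3KO2 arrays, of which replicate 3 was the nearest. Psma8 averaged 3.65 ± 0.87 in 4-week Glis3KO2 and 5.42 ± 0.04 in 4-week WT (SD, n = 3 each), a log2 difference of -1.77 (SE 0.41, adjusted p = 0.00710), 3.40-fold lower. Without replicate 3 of Glis3KO2 the difference was -2.25. At 1 week the signals were -0.09, 0.36, 1.04 and -0.57 in 1-week Glis3KO2, against 1.07, 0.65, 0.58 and 1.28 in 1-week WT. The genotypes overlapped at that age and the difference of -0.71 was not called (adjusted p = 0.168). The difference between the ages' genotype differences was -1.06 and was not called (adjusted p = 0.138).

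Markers of spermatids and of pachytene spermatocytes were lower at 4 weeks, as Psma8 was. The summed linear signal of 10 spermatid genes, relative to the 75th percentile of the array, was 60.3 to 158 in 4-week Glis3KO2 and 581 to 852 in 4-week WT, and all 10 were lower. For 8 pachytene spermatocyte genes the sum was 154 to 308 in 4-week Glis3KO2 and 483 to 538 in 4-week WT, with all 8 lower and replicate 3 of Glis3KO2 the highest of its group. For 10 Sertoli cell genes it was 99.9 to 137 in 4-week Glis3KO2 and 40.4 to 43.0 in 4-week WT, with 9 higher. Over all genes 69.2% were called at 4 weeks and 10.0% at 1 week. Of 7 markers of undifferentiated spermatogonia 3 were higher and 1 lower at 4 weeks, and all 7 were lower at 1 week. Of 8 Leydig cell markers 2 were higher and 3 lower at 4 weeks, and 5 were higher at 1 week. All of these markers were above background on at least 1 array of each 4-week group. The part of these cell types in the subunit differences was not tested, and in whole tissue fewer cells of a type and less RNA per cell cannot be told apart.

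Among the other alpha subunits at 4 weeks, Psma1 rose (0.44, SE 0.14, adjusted p = 0.0265) while Psma6 (-0.72, SE 0.14, adjusted p = 0.00344), Psma3 (-0.50) and Psma4 (-0.40) fell. Psma2 (0.29) and Psma5 (0.08) were not called. The alpha ring differences ran from -0.72 to 1.33. The calls of Psma1, Psma3, Psma4 and Psma6 were each lost under median scaling or quantile normalization.

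The core's active sites are made by Psmb5, Psmb6 and Psmb7, which cut after hydrophobic, acidic and basic residues in turn. Psmb6 had signals of 4.90, 4.96 and 5.11 in 4-week Glis3KO2, against 5.45, 5.52 and 5.44 in 4-week WT, with no overlap, and was lower in Glis3KO2, with a difference of -0.48 (SE 0.14, adjusted p = 0.0166). Psmb5 had 3.21, 3.49 and 3.46 in 4-week Glis3KO2, against 3.75, 3.69 and 3.75 in 4-week WT. Its Glis3KO2 arrays all lay below the WT arrays, but the difference of -0.34 was not called (adjusted p = 0.0696). Psmb7 had 2.33, 2.47 and 2.57 in 4-week Glis3KO2, against 2.81, 2.69 and 2.70 in 4-week WT. It also had no overlap and was not called (-0.28, adjusted p = 0.119). With quantile normalization the Psmb6 difference was -0.02 and its call was lost.

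The immunoproteasome subunits that replace these differed from one another. Psmb10, the counterpart of Psmb7, had signals of 2.96, 2.95 and 2.41 in 4-week Glis3KO2, against 1.60, 1.53 and 1.49 in 4-week WT. All Glis3KO2 arrays were higher than all WT arrays, and replicate 3 was the lowest of the Glis3KO2 arrays. The difference was 1.23 (SE 0.19, adjusted p = 0.00161), 2.35-fold higher. Psmb8, the counterpart of Psmb5, had signals of -0.77, -0.93 and -1.24 in 4-week Glis3KO2, against -1.30, -1.43 and -1.34 in 4-week WT. The arrays did not overlap, and the difference of 0.38 was not called (adjusted p = 0.0847). Psmb9, the counterpart of Psmb6, had -1.07, -1.63 and -2.25 in 4-week Glis3KO2, against -1.56, -1.73 and -1.47 in 4-week WT. The Glis3KO2 arrays spread on both sides of the WT arrays (difference -0.06, adjusted p = 0.859).

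At 1 week Psmb8 was nearest to a call. Its signals were -0.77, -0.88, -0.39 and -0.29 in 1-week Glis3KO2, against -1.43, -1.22, -1.23 and -1.01 in 1-week WT. Each Glis3KO2 array was above each WT array, and the difference was 0.64 (SE 0.17, adjusted p = 0.0514). Psmb8 was called in 9 of 20 alternatives, with adjusted p from 0.0236 to 0.165. The second Psmb8 probe differed by 0.66 (adjusted p over all probes 0.0471). Psmb9 had signals of -0.85, -0.91, -0.38 and -0.22 in 1-week Glis3KO2, against -0.71, -0.69, -0.75 and -0.46 in 1-week WT, which overlapped (0.06, adjusted p = 0.806). Psmb10 had 2.52, 2.55, 3.34 and 2.88 in 1-week Glis3KO2, against 2.96, 2.99, 2.81 and 3.45 in 1-week WT. These also overlapped (-0.23, adjusted p = 0.463), and the Psmb10 difference changed between the ages by 1.46 (SE 0.32, adjusted p = 0.00218).

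The constitutive counterparts overlapped between the genotypes at 1 week. Psmb5 had 3.52, 3.59, 4.36 and 3.83 in 1-week Glis3KO2, against 3.59, 3.42, 3.38 and 3.84 in 1-week WT. Psmb6 had 5.03, 5.0, 5.95 and 5.47 in 1-week Glis3KO2, against 4.97, 4.98, 4.93 and 5.22 in 1-week WT. Psmb7 had 2.56, 2.68, 3.20 and 2.85 in 1-week Glis3KO2, against 3.08, 2.82, 2.81 and 2.95 in 1-week WT. In each of the 3 genes the highest array was replicate 3 of 1-week Glis3KO2. Their differences were 0.27, 0.33 and -0.09, with adjusted p of 0.359, 0.287 and 0.675. Of the 4 structural beta subunits Psmb3 was higher at 4 weeks (0.45, SE 0.15, adjusted p = 0.0302), a call that median scaling lost, and Psmb1, Psmb2 and Psmb4 were not called, at 0.18, 0.22 and -0.14.

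Genes that load the peptides made by the immunoproteasome onto MHC class I were examined beside them, from a list of 12. Over all genes 69.2% were called at 4 weeks, 35.1% higher and 34.1% lower, and the called share of the list was no larger. Of the 12 genes 8 were higher in Glis3KO2 at that age and none was lower, with a median of 1.00. They included the transcription factor Irf1 (1.89, adjusted p = 0.000872), the peptide transporter gene Tap2 (1.71), the peptide trimming enzyme Erap1 (1.54), the loading factor Tapbp (1.42) and the class I light chain B2m (1.00). Tap1 was not called (0.98, adjusted p = 0.0637), nor were the chaperones Canx, Calr and Pdia3. At 1 week H2-K1 (0.76) and H2-D1 (0.65), which encode class I heavy chains and are close in sequence, so that a probe may bind both, were higher, and Erap1 (-0.84) and Irf1 (-0.61) were lower. Over all genes 10.0% were called at 1 week, 3.90% higher and 6.14% lower. Markers of macrophages and other immune cells were examined too. Of 15 such genes 9 were higher and 2 lower at 4 weeks, and 8 were higher and none lower at 1 week. Their summed linear signal was 27.0 to 38.0 in 4-week Glis3KO2 and 14.7 to 19.9 in 4-week WT, and 19.9 to 31.4 in 1-week Glis3KO2 and 11 to 16.8 in 1-week WT. None of the 15 was at background in all arrays of a group, and their part in the Psmb8 and Psmb10 values was not tested.

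The activators, which dock on the end of the core, split at 4 weeks. Psme1, an interferon-induced subunit of the ring-shaped activator linked to MHC class I peptides, had signals of 3.71, 3.73 and 3.13 in 4-week Glis3KO2, against 2.1, 1.90 and 1.94 in 4-week WT. All Glis3KO2 arrays were far above the WT arrays, with replicate 3 the lowest of them. Its difference was 1.54 (SE 0.20, adjusted p = 0.00103), 2.91-fold higher. At 1 week the signals were 4.25, 4.18, 4.68 and 4.58 in 1-week Glis3KO2, against 4.06, 4.06, 3.94 and 4.33 in 1-week WT. The genotypes overlapped at that age (0.33, adjusted p = 0.164), and the difference changed between the ages by 1.22 (SE 0.26, adjusted p = 0.00190). The Psme1 probe lies at chr14:50448660-50448719 (mm7). Its ring partner was not analysed here.

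Psme4, a large single-chain activator, had signals of 4.17, 4.28 and 4.96 in 4-week Glis3KO2, against 5.79, 6.02 and 5.87 in 4-week WT. The Glis3KO2 arrays lay below the WT arrays, and replicate 3 was nearest to them. The difference was -1.42 (SE 0.23, adjusted p = 0.00194), 2.68-fold lower. Other Psme4 probes had the same sign, with differences of -1.79 and -1.63, and the remaining one was not tested at this age. At 1 week Psme4 had 3.71, 3.77, 3.72 and 3.67 in 1-week Glis3KO2, against 3.39, 3.47, 3.46 and 3.65 in 1-week WT. Every Glis3KO2 array was above every WT array there, though the difference of 0.22 was not called (adjusted p = 0.154). The 3 other probes had the opposite sign at that age (-0.90 for the probe not tested at 4 weeks, -0.45 and -0.11). The genotype difference changed between the ages by -1.64 (SE 0.24, adjusted p = 0.000205). The brightest probe lies at chr11:30832174-30832233 (mm7).

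Psme3, the nuclear activator, had 0.38, 0.51 and 0.70 in 4-week Glis3KO2, against 1.14, 1.36 and 1.05 in 4-week WT. There was no overlap, and the difference was -0.65 (SE 0.16, adjusted p = 0.00998). At 1 week the signals were 0.45, 0.48, 0.75 and 0.34 in 1-week Glis3KO2, against 0.92, 0.67, 0.70 and 0.59 in 1-week WT. They overlapped (-0.21, adjusted p = 0.264).

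**Figure D3:**
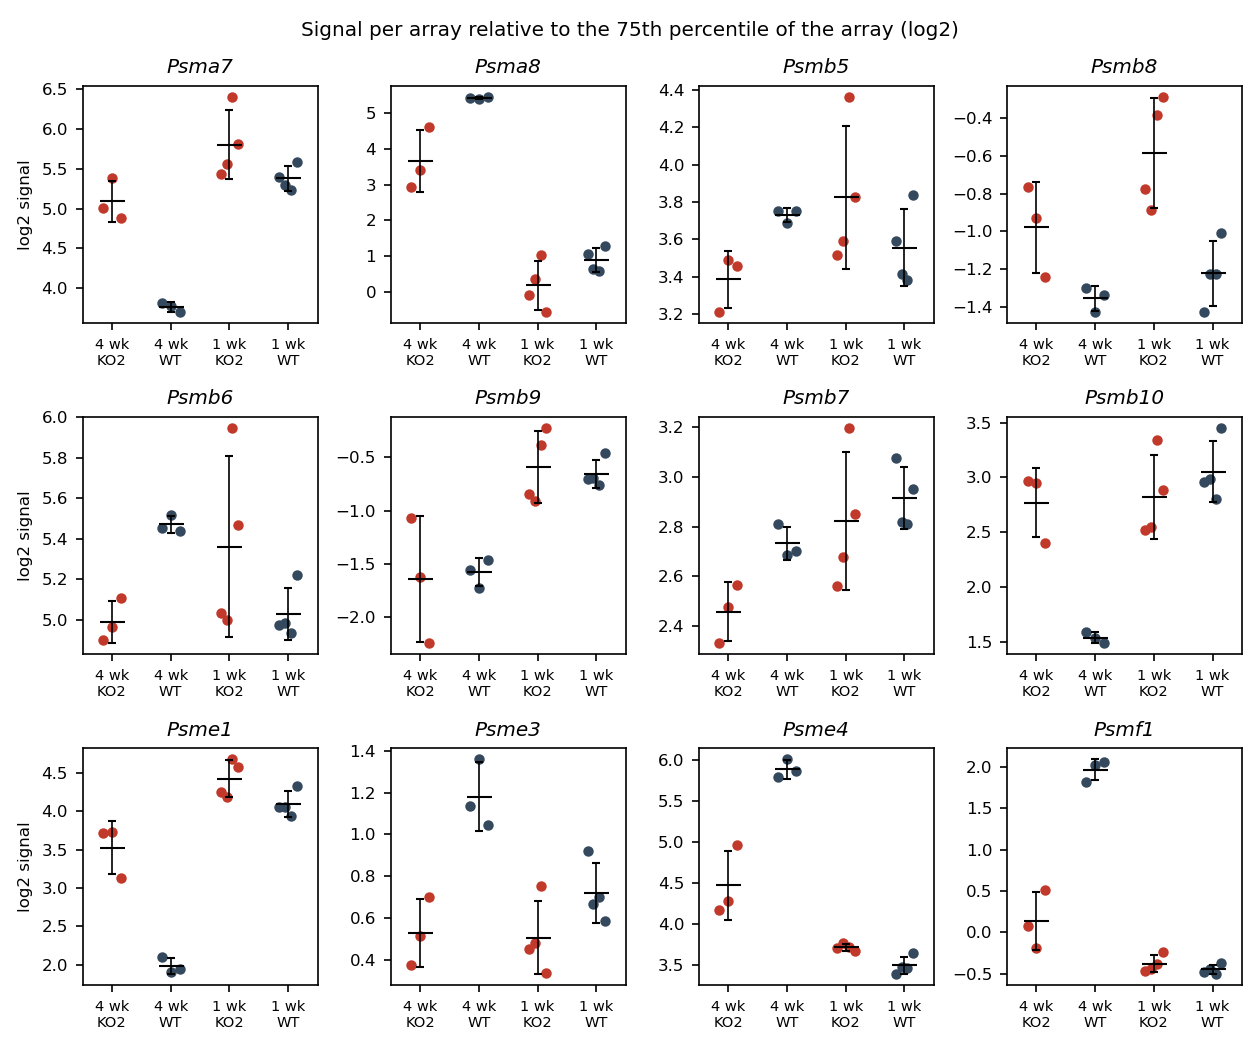
Log2 signal on each array, relative to the array's 75th percentile, of 12 subunit genes in 4-week Glis3KO2, 4-week WT, 1-week Glis3KO2 and 1-week WT. Red points are Glis3KO2 and dark points WT, with the mean as a bar and 1 SD as whiskers, and each panel has its own vertical scale. Psma7, Psmb10 and Psme1 are higher and Psma8, Psme3, Psme4 and Psmf1 lower in Glis3KO2 at 4 weeks with no overlap.

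Psmf1, which encodes an inhibitor of the core that is also linked to proteasome transport, had signals of 0.08, -0.19 and 0.51 in 4-week Glis3KO2, against 1.82, 2.02 and 2.06 in 4-week WT. The Glis3KO2 arrays all lay below the WT arrays. The difference was -1.83 (SE 0.21, adjusted p = 0.000732), 3.56-fold lower. At 1 week the signals were -0.46, -0.44, -0.38 and -0.24 in 1-week Glis3KO2, against -0.49, -0.44, -0.50 and -0.37 in 1-week WT. They overlapped, and the difference of 0.07 was not called (adjusted p = 0.634). Between the ages the difference changed by -1.90 (SE 0.22, adjusted p = 5.76e-05). The other Psmf1 probes were not called at 4 weeks. They differed by -0.14 (adjusted p over all probes 0.353) and 0.23 (0.505). For these probes the change between the ages was -0.16 (0.388) and -0.11 (0.797), also not called. The first of them had signals of -0.51, -0.40 and -0.47 in 4-week Glis3KO2, against -0.30, -0.34 and -0.32 in 4-week WT. Those arrays did not overlap either, within a narrower range. The mean of all 3 probes differed by -0.58 (adjusted p = 0.0108). The accession of the brightest probe was not matched in the RefSeq table, while that of both others is Psmf1 there. These probes start 12533 and 13357 bases from the brightest one. The first 30 of the 60 bases of each Psmf1 probe are shown because the readouts differ between them, at chr2:151470474-151470533 for the brightest, chr2:151457941-151458000 for the nearer and chr2:151457117-151457176 for the farther one (mm7, minus strand).
Psmf1 brightest probe: gacctataagaacagtgaggagcttcggtc
Psmf1 nearer probe: taggtttgggaatgtagataacttggaccc
Psmf1 farther probe: tttgttattttgcgtgggcagtttttaagt

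In the regulatory particle 3 of 6 ATPases and 4 of 11 non-ATPases were lower at 4 weeks, and 1 non-ATPase was higher, beside 34.1% lower and 35.1% higher over all genes. With quantile normalization Psmc2, Psmc3 and Psmd8 stayed lower and Psmc1, Psmc4, Psmc6, Psmd3, Psmd4, Psmd7 and Psmd14 were called higher. Psmc2, an ATPase of the base, had signals of 4.63, 4.68 and 5.04 in 4-week Glis3KO2, against 5.71, 5.86 and 5.80 in 4-week WT. There was no overlap, and the difference was -1.01 (SE 0.16, adjusted p = 0.00188), 2.01-fold lower. The ATPase Psmc3 fell by 1.38 on the log2 scale and Psmc5 by 0.52, while Psmc1, Psmc4 and Psmc6 were not called, at 0.09, 0.27 and 0.30. The second Psmc2 probe, which starts 5755 bases away, went the other way. It had signals of -3.08, -3.56 and -4.21 in 4-week Glis3KO2, against -4.51, -4.49 and -4.65 in 4-week WT. Its difference was 0.93 (adjusted p over all probes 0.0226), and the mean of both probes differed by -0.04 (adjusted p = 0.830). The first 30 bases of each probe are printed because their readouts oppose each other, at chr5:20841197-20841349 for the brightest and chr5:20835442-20835501 for the second (mm7, plus strand).
Psmc2 brightest probe: tggacaggaagattgagttcagcttacctg
Psmc2 second probe: ctccaccccttttggtggatccgtcgtgtt

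Psmd7, a lid subunit that holds the deubiquitinating enzyme Psmd14, was the non-ATPase that rose. Its signals were 3.45, 3.62 and 3.23 in 4-week Glis3KO2, against 2.74, 2.60 and 2.70 in 4-week WT. The arrays did not overlap, and the difference was 0.76 (SE 0.16, adjusted p = 0.00447), 1.69-fold higher. Its other probes rose too, by 0.61 and 1.31. Psmd14 itself was not called (0.13). The lid subunits Psmd8 (-0.94, SE 0.18, adjusted p = 0.00312), Psmd6 (-0.54) and Psmd11 (-0.38) and the base scaffold Psmd2 (-0.69) fell. The scaffold Psmd1 (-0.01), the ubiquitin receptor Psmd4 (0.35) and the lid subunits Psmd3 (0.36), Psmd12 (-0.25) and Psmd13 (-0.25) were not called.

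The 3 chaperones that build the base differed as well. Psmd9 had signals of 1.16, 1.11 and 1.34 in 4-week Glis3KO2, against 2.12, 2.02 and 2.06 in 4-week WT. Glis3KO2 lay below WT on every array, and the difference was -0.86 (SE 0.14, adjusted p = 0.00180), 1.82-fold lower. Psmd5 rose (0.53, SE 0.14, adjusted p = 0.0138), and Psmd10 was not called (-0.06). The second Psmd9 probe, which starts 8697 bases from the brightest, had signals of -0.50, -0.28 and -0.43 in 4-week Glis3KO2, against -0.56, -0.67 and -0.61 in 4-week WT. Those arrays did not overlap either but stood in the opposite order (0.21, adjusted p over all probes 0.217), and the mean of both probes was not called (-0.33, adjusted p = 0.0589). The first 30 bases of both are printed for the same reason as those of Psmc2, at chr5:122475368-122477508 for the brightest, which is split over 2141 bases of genome, and chr5:122484065-122484124 for the second (mm7, plus strand).
Psmd9 brightest probe: cagccagtattgcgggcctgcaagtggatg
Psmd9 second probe: tgatttgtgcctagctacgtcttgtgcaaa

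Over all 16 genes with several probes, 20 further probes were tested at 4 weeks, and 16 had the sign of the brightest. The 4 that did not belonged to Psmc2, Psmd9, Psmd12 and Psmf1. For Psmd12 the brightest probe differed by -0.25 and the others by 0.70 and -0.24. Sizes differed where signs did not. The second probe gave 1.92 for Psmd4, where the brightest gave 0.35, and 1.10 for Psmc6, where the brightest gave 0.30. The other Psmd11 probe lies on the minus strand, opposite to the brightest, and was well above background on 1 of 3 arrays in 4-week Glis3KO2 and 3 of 3 in 4-week WT, so no size is given for it, though it is among the 16. Each probe has a target accession in the files, and 54 of the 63 probes could be tied to a RefSeq symbol by it. Those not tied were the Psma8 probe, the brightest Psme4 and Psmf1 probes and the second Psmc2, Psmc6 and Psmd4 probes. The Psmd7 probe at 1.31, the other Psmd11 probe and the Psme4 probe not tested at 4 weeks were not tied either.

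**Figure D4:**
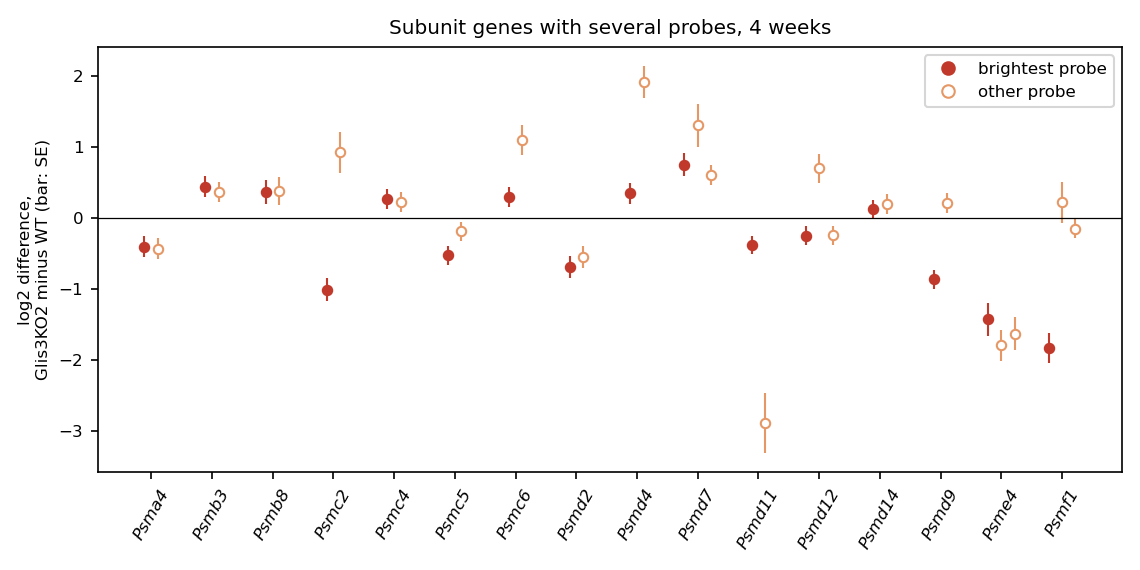
Log2 difference at 4 weeks, Glis3KO2 minus WT, of each tested probe of the 16 subunit genes with more than 1 probe, with bars of 1 SE. Filled points are the brightest probe and open points the others. Psme4 and Psmd7 probes lie together, while Psmc2, Psmd9, Psmd12 and Psmf1 have probes on both sides of 0. The open Psmd11 point is the probe on the opposite strand, which was above background on 1 of 3 arrays in 4-week Glis3KO2.

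The subunit genes were also compared between the ages within each genotype. In Glis3KO2 3 members were higher at 4 weeks than at 1 week and 7 lower, while 52.6% of all genes were called, 23.8% higher and 28.8% lower. In WT 14 were higher and 18 lower, while 81.0% of all genes were called, 31.3% higher and 49.7% lower. The median 4-week minus 1-week difference of the members was -0.36 in Glis3KO2 and -0.18 in WT, against -0.14 and -0.51 over all genes. The arrays of the ages did not overlap for 23 members in Glis3KO2 and 36 in WT, while 58.2% and 80.8% of all genes had no overlap. With median scaling the calls in Glis3KO2 were 1 higher and 12 lower, and those in WT 14 higher and 12 lower. With quantile normalization the WT calls were 9 higher and 27 lower. Median scaling moved the median of all genes to -0.34 in Glis3KO2 and -0.37 in WT. Relative to all genes the median of the members was -0.22 in Glis3KO2 and 0.33 in WT, and 0.02 and -0.05 with quantile normalization. Median scaling shifts every gene of an array alike, so it could not change the -0.22 and 0.33. The Glis3KO2 count of higher genes was 1 without 1-week replicate 1, and that of lower genes was 4 without 4-week replicate 3.

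Psma8 was the member with the largest age difference, 3.47 (SE 0.47) in Glis3KO2 and 4.52 (SE 0.18) in WT, called in both. Psme4 was higher at 4 weeks by 0.76 in Glis3KO2 and by 2.40 in WT. The Glis3KO2 call was lost with median scaling (0.55, adjusted p = 0.0900) and without 1-week replicate 1, and with the mean of all probes its sign turned. The Psme4 probe not tested for genotype at 4 weeks, which was above background on no 4-week array, was lower at 4 weeks in both genotypes. The Psmf1 difference of 0.52 in Glis3KO2 was not called (adjusted p = 0.0721), and it was higher by 2.42 in WT. Psmc3 (0.42 in Glis3KO2, 1.84 in WT), Psmc2 (0.19 and 1.44 in the same order) and Psmd9 (0.37 and 1.25) were not called in Glis3KO2 and were called in WT.

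Other probes of these genes opposed the brightest with age. In WT the second Psmc2 probe differed by -1.86 (adjusted p over all probes 6.22e-06) and the second Psmd9 probe by -0.32 (0.0201). The other Psmf1 probes differed by -1.74 (4.31e-06) and -0.16 (0.0783) in WT. With the mean of all probes the WT calls of Psmc2, Psmd12 and Psmf1 did not hold, and the differences of Psmc2 and Psmd12 turned sign.

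Psme1 fell by 0.90 in Glis3KO2 and fell by 2.12 in WT on the log2 scale, and Psmd5 fell by 0.81 in Glis3KO2 and fell by 1.58 in WT. The Psma7 difference of -0.71 in Glis3KO2 was not called (adjusted p = 0.0540), and Psma7 fell by 1.62 in WT. The Psmb10 difference of -0.05 in Glis3KO2 was not called (adjusted p = 0.882), and Psmb10 fell by 1.51 in WT. The age comparison in WT and the genotype comparison at 4 weeks share the 4-week WT arrays, so the values are set side by side only. The summed spermatid markers were 60.3 to 158 at 4 weeks and 0.433 to 0.930 at 1 week in Glis3KO2. In WT the sum was 581 to 852 at 4 weeks and 0.730 to 0.910 at 1 week. At 1 week 3 of the 10 markers were above background on no Glis3KO2 array and 1 on no WT array. The part of the spermatid markers in the age differences was not tested.

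**Figure D5:**
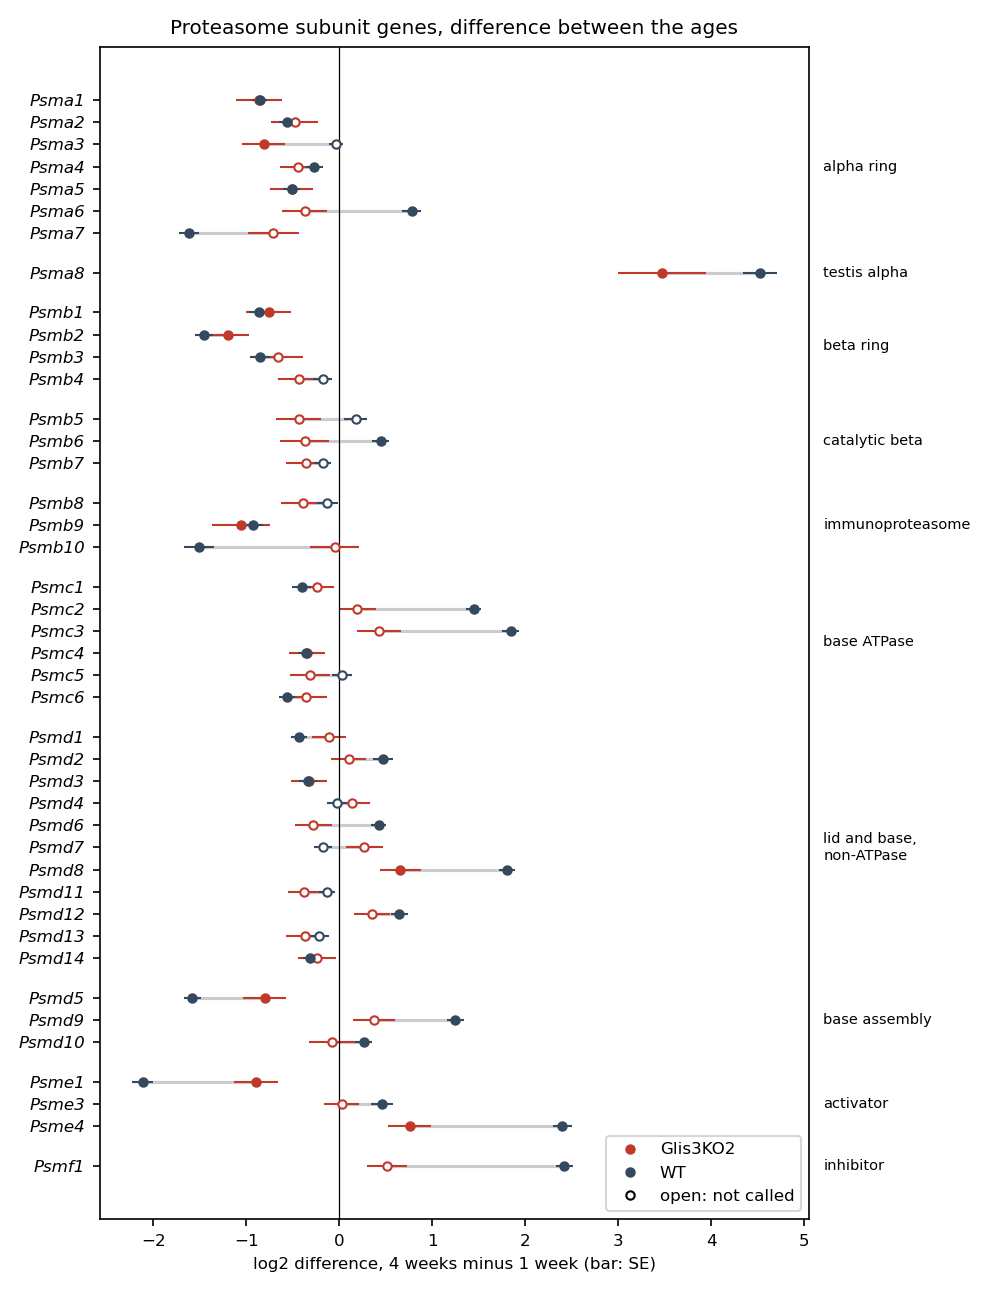
Log2 difference, 4 weeks minus 1 week, of the 42 subunit genes in Glis3KO2 (red) and WT (dark), grouped by role, with bars of 1 SE and grey lines joining the genotypes. Open points were not called. Psma8 stands far to the right in both genotypes, and for Psmf1, Psme4, Psmc3, Psmc2, Psma7 and Psmb10 the WT point lies farther from 0 than the Glis3KO2 point.

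Whether the genotype difference itself differed between the ages was tested in 1 fit of all 14 arrays. The 4-week minus 1-week value was above 0 for Psmb10, Psme1, Psma7 and Psmd5, and below 0 for 10 members led by Psmf1, Psme4, Psmc3, Psmc2, Psma6 and Psmd8. Over all genes 51.0% were called, 29.3% higher and 21.6% lower. The median of the members was -0.18 and that of all genes 0.24. With median scaling 2 members were higher and 16 lower, and with quantile normalization 19 were higher and 7 lower. Relative to all genes the median of the members was -0.42, and 0.24 with quantile normalization. Median scaling shifts every gene of an array alike, so it could not change the -0.42. Psmb10, Psme1, Psma6, Psmc3, Psmd8, Psme4 and Psmf1 kept their call and sign under all 24 alternatives. For Psmf1 this rests on the brightest probe, since its other probes alone were not called (-0.16 and -0.11).

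Genes that feed or regulate the proteasome were taken from a list of 28, of which 26 were on the array and 26 tested at 4 weeks. At that age 7 were higher and 9 lower in Glis3KO2, with a median of 0.05, while 69.2% of all genes were called, 35.1% higher and 34.1% lower. The called share of the list was no larger than that. The largest rise was that of Nfe2l2, the factor of the antioxidant response (2.07, adjusted p = 0.000745). Nfe2l1, the factor that activates proteasome genes when proteasomes are inhibited, also rose (1.24, adjusted p = 0.00130). It had signals of 4.23, 4.40 and 3.87 in 4-week Glis3KO2, against 3.01, 2.82 and 2.93 in 4-week WT, with no overlap. The ubiquilin Ubqln2 (1.32), the ubiquitin-activating enzyme Uba6 (0.93) and the unfoldase Vcp (0.55) were higher. Those lower included the Vcp cofactor Ufd1l (-1.13, adjusted p = 0.00101) and the proteasome-bound deubiquitinase Uchl5 (-1.02). At 1 week none of 25 was higher and 1, the ubiquilin Ubqln1, was lower (-0.44, adjusted p = 0.0416). Pomp, which assists core assembly, was not called at either age (0.16 at 4 weeks and 0.36 at 1 week).

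By accession 4 further subunit genes lay under older names outside the naming rule. At 4 weeks the core assembly chaperones Psmg1 (-0.53, adjusted p = 0.0140) and Psmg2 (-0.76, adjusted p = 0.00314) were lower and Psmg3 (0.56, adjusted p = 0.0157) higher, and the thymus subunit Psmb11 was not called (-0.09). None was called at 1 week.

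Start regions were read from RefSeq for 35 of the 42 genes, from 250 bases before to 50 after the start, on GRCm38.p6. Letters were searched on both strands. The antioxidant response core TGACNNNGC was present in 6 of 35 members and 12.4% of all 32851 regions of that length. The CCAAT box was present in 13 of 35 members and 37.4% of regions, and the interferon response core (GAAA, any 2 bases, GAAA) in 4 of 35 and 3.44%. Of the 6 genes that rose and had a region, 0 held the antioxidant core, 2 the interferon core and 3 the CCAAT box. Of the 14 that fell, 3 held the antioxidant core, 1 the interferon core and 4 the CCAAT box. A match describes letters and not a bound site. The regions of Psme1 and Psma7, which rose most, and of Psme4 and Psmd9, which fell, are printed with the matches in capitals. Psme4 and Psmd9 are among the 3 that fell and held the antioxidant core. Psmf1 (-1.83) and Psma8 (-1.77) fell more than either. The printed regions of Psme1 and Psma7 lie at chr14:55578244-55578543 on the plus strand and chr2:180042415-180042714 on the minus strand. Those of Psme4 and Psmd9 lie at chr11:30771525-30771824 and chr5:123227940-123228239, both on the plus strand. Psme1 holds the interferon core, Psma7 a CCAAT box, Psme4 the antioxidant core, and Psmd9 the interferon and antioxidant cores.
Psme1 start region: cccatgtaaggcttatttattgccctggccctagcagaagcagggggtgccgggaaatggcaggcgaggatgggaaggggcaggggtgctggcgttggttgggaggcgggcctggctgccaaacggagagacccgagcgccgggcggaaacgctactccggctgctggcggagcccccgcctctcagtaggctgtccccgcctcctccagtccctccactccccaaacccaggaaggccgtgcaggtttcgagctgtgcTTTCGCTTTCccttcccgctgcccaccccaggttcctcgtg
Psma7 start region: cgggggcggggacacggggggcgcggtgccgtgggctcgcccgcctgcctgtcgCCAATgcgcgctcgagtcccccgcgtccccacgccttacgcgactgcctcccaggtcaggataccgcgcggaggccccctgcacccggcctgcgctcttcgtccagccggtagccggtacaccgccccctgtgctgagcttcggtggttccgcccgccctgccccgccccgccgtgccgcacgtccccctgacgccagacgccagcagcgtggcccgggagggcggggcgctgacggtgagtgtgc
Psme4 start region: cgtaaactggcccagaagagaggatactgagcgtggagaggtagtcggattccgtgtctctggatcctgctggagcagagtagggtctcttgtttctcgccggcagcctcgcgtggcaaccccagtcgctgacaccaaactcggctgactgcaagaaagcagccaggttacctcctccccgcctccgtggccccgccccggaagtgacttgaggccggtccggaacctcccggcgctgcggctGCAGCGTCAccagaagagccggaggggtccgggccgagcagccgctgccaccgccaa
Psmd9 start region: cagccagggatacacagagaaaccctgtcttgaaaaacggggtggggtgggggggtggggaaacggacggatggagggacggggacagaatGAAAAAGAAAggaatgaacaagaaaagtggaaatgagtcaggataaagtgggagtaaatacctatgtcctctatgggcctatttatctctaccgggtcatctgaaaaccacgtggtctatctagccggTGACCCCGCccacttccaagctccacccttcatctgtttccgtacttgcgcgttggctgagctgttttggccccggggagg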

How the data were processed

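Total RNA of 14 testis samples was hybridised to Agilent single-colour arrays. The deposited files hold the processed signal of each spot as intensity on a linear scale, background-subtracted by version 9.5 of Feature Extraction, per the file headers and the submitters' processing notes. The authors' series table held the same values. Probe positions are those of the files (mm7).

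From these, non-uniform spots by the software's own mark were dropped and repeated spots averaged. The log2 of each deposited intensity was then set against the array's 75th percentile over non-control probes. A probe was tested where at least 3 arrays of some group showed it well above background, and the brightest stood for its gene. Differences were fitted with limma 3.58.1 (R 4.3.3; lmFit, eBayes) on the arrays of each comparison, and the difference between the ages in 1 fit of all 14. Adjusted p-values are Benjamini-Hochberg over all genes, in 5 comparisons, called under 0.05. The fit was tested on simulated data. Tables and plots used Python 3.11.15, numpy 2.4.6, pandas 2.3.3, scipy 1.17.1 and matplotlib 3.10.9.

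Members were all genes of the naming rule. Values in every sample were given for the catalytic and immunoproteasome subunits, Psma7, Psma8, the activators, Psmf1, and the 4 members per direction with the smallest adjusted p. The members and lists were chosen with earlier results of these data known. Of 63 member probes, 54 had an accession in RefSeq, each with the same symbol. Some genes of the lists are not reported here by name. Alternatives were other scalings, background correction, filters, probe rules, fits, blocks and leaving out each array. The authors' series table was also counted, though it held the same values and could change no call. For a gene with a single probe the mean of all probes left its values unchanged.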

Additional observations from a re-analysis of the deposited data

Results flagged for a closer look

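A sample far from the rest of its group was found in 3 of the 84 gene and group combinations of 4 arrays, where chance gives about 1 in 20. Psmd10, an assembly chaperone, was at 1.74 on 1-week Glis3KO2 replicate 3 and at 0.91 to 1.05 on the other arrays of that group. Psmd13, a lid subunit, was at 1.11 on the same array and at 0.57 to 0.63 on the others. Psmb3, a structural beta subunit, was at 5.35 on 1-week WT replicate 4 and at 5.03 to 5.06 on the others.

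In 14 members the genotype difference, Glis3KO2 minus WT, differed between the ages in limma's fit of all arrays. These are 33.3% of the members, while 51.0% of all genes were called in that fit, so the members were called less often. The 4-week minus 1-week value was above 0 for Psmb10 at 1.46 (adjusted p = 0.00218), Psme1 at 1.22 (adjusted p = 0.00190), Psma7 at 0.91 (adjusted p = 0.0230) and Psmd5 at 0.77 (adjusted p = 0.0150). It was below 0 for the inhibitor Psmf1 at -1.90 (adjusted p = 5.76e-05) and the activator Psme4 at -1.64 (adjusted p = 0.000205). Among the ATPases it was below 0 for Psmc3 at -1.42 (adjusted p = 0.000591) and Psmc2 at -1.25 (adjusted p = 0.000317). In the core it was below 0 for Psma6 at -1.15 (adjusted p = 0.00254), Psmb6 at -0.82 (adjusted p = 0.0293) and Psma3 at -0.78 (adjusted p = 0.0148). In the regulatory particle and its chaperones it was below 0 for Psmd8 at -1.15 (adjusted p = 0.00111), Psmd9 at -0.88 (adjusted p = 0.00674) and Psmd6 at -0.70 (adjusted p = 0.00937).

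Several of these calls depended on the processing. With median scaling the calls of Psma7 and Psmd5 were lost (0.57 and 0.44). With quantile normalization those of Psma3, Psmb6 and Psmd6 were lost (-0.34, -0.0038 and -0.18). Psmb6 also lost its call without 1-week WT replicate 2 or 3, without any 1 of the 4-week WT arrays, or without 4-week Glis3KO2 replicate 1 or 2. With the mean of all probes the calls of Psmc2 and Psmd9 did not hold and the value of Psmc2 turned sign. The second Psmc2 probe alone gave 1.37 (adjusted p over all probes 0.00600). The other Psmf1 probes alone gave -0.16 (0.388) and -0.11 (0.797) and were not called.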

How the results depend on the processing

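At 1 week Psmb8 was the 1 member higher with median scaling, quantile normalization, normexp, a filter on every array, averaged probes, a single fit of all arrays, or an intensity trend, and quantile normalization also called 1 lower. The members' median there was 0.35 with median scaling and -0.12 with quantile normalization. At 4 weeks quantile normalization gave 17 higher and 8 lower with a median of 0.094, the intensity trend 11 higher, median scaling a median of -0.18 and the mean of all probes -0.049. Between the ages in WT, quantile normalization gave 9 higher and a median of -0.54, and median scaling a median of -0.045. In Glis3KO2, median scaling gave 1 higher and 12 lower (median -0.56), 1 fit of all arrays 6 higher and 16 lower, and quantile normalization a median of -0.16. The test between the ages gave 2 higher and 16 lower with median scaling (median -0.52) and 19 higher with quantile normalization (median 0.35). With normexp, which added an offset of 50 to the intensities, the Glis3 difference at 1 week was -0.46. The cause was not tested.

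Leaving out each array gave 0 to 1 higher at 1 week. At 4 weeks it gave 4 to 13 higher, 10 to 20 lower and medians from -0.16 to -0.062. With age in Glis3KO2 it gave 1 to 3 higher, 4 to 8 lower and medians from -0.40 to -0.21, and medians from -0.25 to -0.076 for the test between the ages. Same-numbered arrays did not deviate together (correlations from -0.17 to 0.16 at 1 week and from -0.31 to 0.14 at 4 weeks), and with the replicate block 4 members were higher and 12 lower at 4 weeks. An alternative chosen after seeing the data left out both 1-week arrays numbered 4 and gave 0 higher and 0 lower at 1 week. Every member's brightest probe was well above background on all 14 arrays, so the number of arrays sets the precision.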
